A study of Mus musculus with 14 samples.

Results

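Messenger RNAs that mark B and T lymphocytes were read in mouse left ventricle for 9 genes, of 19937 genes measured. The B lineage was represented by Ms4a1, Cd79a, Cd79b and Cd22 (4 genes) and the T lineage by Cd3d, Cd3e, Cd3g, Cd4 and Cd8a (5 genes). They were chosen by name as defining surface proteins of these cells, and each was read from its single probe set listed with 1 gene symbol. All 9 were measured, and no filter on low values was set. The values are log2 levels after robust multi-array averaging (RMA), from 14 Affymetrix mouse ST 1.0 arrays, 1 for each mouse.

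All mice were male and of C57BL/6 background, and hearts were taken 3 weeks after surgery. CXCR5-/- AB (n = 4) and WT AB (n = 4) mice had a band placed around the ascending aorta, which loads the left ventricle with pressure, and banded mice were kept in the study by the flow velocity over the band. CXCR5-/- Sham (n = 3) and WT Sham (n = 3) mice went through the operation with no constriction. In CXCR5-/- mice, which lack the receptor in every cell, the coding region of Cxcr5 had been exchanged for a neomycin resistance gene in embryonic stem cells of another mouse strain, and the line was backcrossed to C57BL/6. WT mice came from a commercial breeder, not from litters of the CXCR5-/- line as far as the sources used here state, and ages were not given. The Cxcr5 probe set read 3.85 to 4.47 on the 7 arrays labelled CXCR5-/- and 3.03 to 3.30 on the 7 WT arrays. The sources used here do not place it inside or outside the replaced region, and it therefore says nothing on the labels.

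B lymphocytes make antibodies and recognise antigen through a surface immunoglobulin whose signals pass through the CD79A and CD79B chains. T lymphocytes recognise antigen through a receptor that signals through the CD3 chains, with CD4 or CD8 as the co-receptor. CXCR5 is the receptor for the chemokine CXCL13 and guides B lymphocytes and a subset of helper T lymphocytes into lymphoid follicles, and a healthy ventricle holds few lymphocytes of either kind. The comparisons ask whether these transcripts differed after pressure overload, and whether that depended on CXCR5. The study also counted CD3-stained and CD45R-stained cells in heart sections. Those counts came from microscopy of other material and are not repeated here.

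No lymphocyte marker gene passed the test in any of 5 comparisons, and most lay near the background of the arrays. The largest difference was in Cd3g, a chain of the T cell receptor complex, which was 0.83 ± 0.28 higher on the log2 scale (SE) in WT AB than in WT Sham hearts, with a limma adjusted p of 0.0785 over all genes. Cd79a and Cd79b, the signalling chains of the B cell receptor, were 0.47 and 0.29 higher in the same comparison, with limma adjusted p values of 0.124 and 0.199. In the bulk tissue, fewer cells of a type and less RNA per cell cannot be told apart. A few mice stood apart within their groups. WT AB replicate 3 stood far above its group in Cd3g and Cd8a, and WT AB replicate 4 in Ms4a1 and Cd79a. The main differences that rest on these arrays are therefore also given without them.

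The arrays read as heart muscle, as the mean level of 5 ventricular cardiomyocyte genes was 12.2 to 12.5 on all 14 arrays. The atrial gene Myl7 ranged from 5.65 to 9.68, so an even share of atrial tissue is not shown. Background was read from the probe sets of olfactory receptor genes (1035), which a ventricle is not expected to use. Their median lay at 2.81 to 2.96 on the 14 arrays and their 95th percentile at 4.50 to 4.77. Cd79b, Cd3e and Cd8a were above that percentile on all 14 arrays. Cd4 was above it on 8, Cd3g on 5, and Cd79a and Cd22 on 1 array each, WT AB replicate 4 for both. Ms4a1 and Cd3d were below it on every array. Against the 95th percentile of vomeronasal receptor probe sets (169), which lay lower, at 3.52 to 3.84, 6 of the 9 genes were above on all 14 arrays and the remaining 3, Ms4a1, Cd79a and Cd3d, on 6, 13 and 13. Probe sets differ in how brightly they bind, so this distance describes each probe set and does not rank the genes by abundance.

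**Figure D1:**
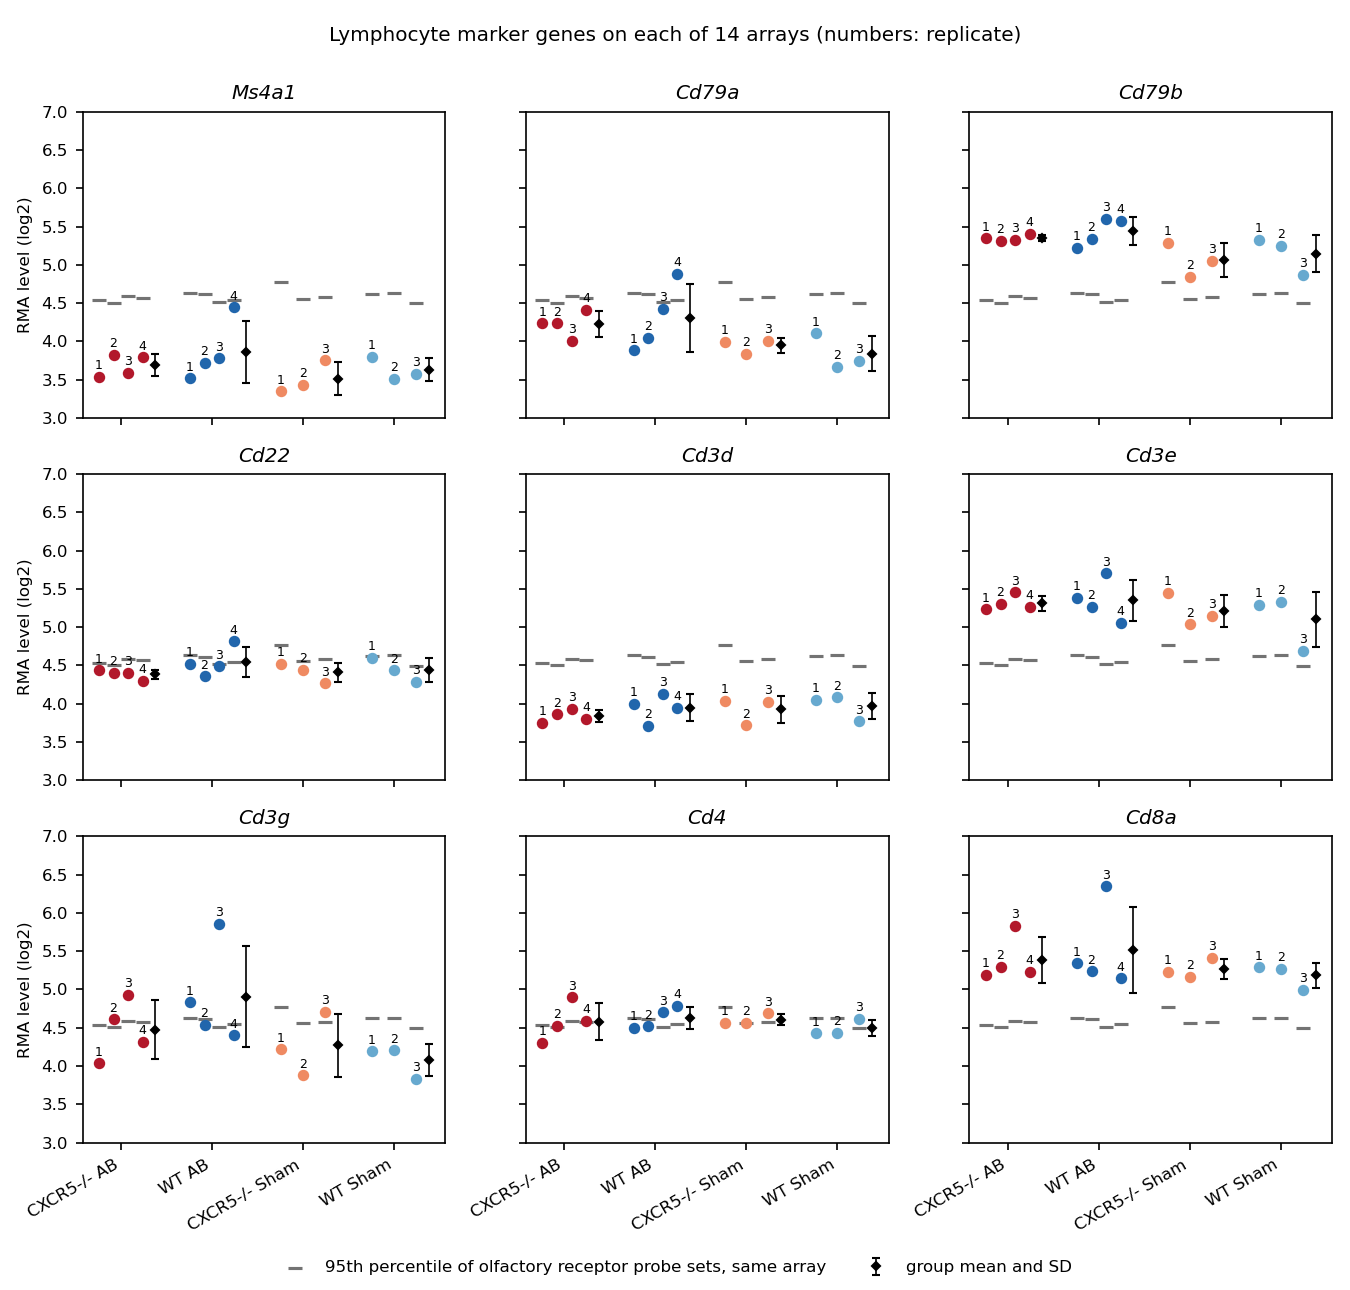
RMA level (log2, vertical axis) of each lymphocyte marker gene on 14 arrays in the 4 groups (horizontal axis), with replicate numbers beside the points, group means with SD as diamonds, and the 95th percentile of olfactory receptor probe sets of the same array as grey dashes. Cd79b, Cd3e and Cd8a lie above the dashes on all 14 arrays, and WT AB replicate 3 stands highest in Cd3g (5.85) and Cd8a (6.34).

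Ms4a1 encodes CD20, a surface protein of B lymphocytes from the pre-B stage until they become plasma cells. Its level was 3.54, 3.83, 3.59 and 3.80 in CXCR5-/- AB replicates 1 to 4 and 3.52, 3.72, 3.78 and 4.45 in WT AB replicates 1 to 4. It was 3.35, 3.44 and 3.76 in CXCR5-/- Sham and 3.80, 3.51 and 3.57 in WT Sham hearts. The groups overlapped in every comparison, and the value of 4.45 in WT AB replicate 4 was the highest of the 14, yet still 0.10 below that array's background percentile.

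Cd79a and Cd79b form the pair of chains that carries the signal of the B cell receptor into the cell. Cd79a was at 4.24, 4.24, 4.01 and 4.42 in CXCR5-/- AB and at 3.88, 4.05, 4.43 and 4.88 in WT AB hearts, replicates in order. It was at 4.0, 3.84 and 4.01 in CXCR5-/- Sham and at 4.10, 3.67 and 3.75 in WT Sham hearts. In mice without CXCR5 every AB array was above every Sham array, the closest by 0.0018, while in WT mice the groups overlapped because WT AB replicates 1 and 2 lay below WT Sham replicate 1. Cd79b, on a brighter probe set, was at 5.35, 5.32, 5.33 and 5.41 in CXCR5-/- AB and at 5.23, 5.34, 5.60 and 5.58 in WT AB hearts. It was at 5.29, 4.84 and 5.06 in CXCR5-/- Sham and at 5.33, 5.25 and 4.87 in WT Sham hearts. Its CXCR5-/- AB arrays lay close together (SD 0.04) and above all 3 CXCR5-/- Sham arrays, whose SD was 0.23.

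The promoter of Cd79a is shown as the B lineage gene with the largest AB difference. RefSeq windows of 300 bases around the gene start (GRCm38.p6) were at hand for 6 of the 9 genes, Cd79a, Cd22, Cd3d, Cd3e, Cd3g and Cd8a, and not for Ms4a1, Cd79b and Cd4. The Cd79a window is chr7:24897247-24897546 on the plus strand, printed 5′ to 3′ with capitals for the letters CACCTG or their reverse complement CAGGTG, a form of the E-box that E proteins, regulators of both lymphocyte lineages, can bind.
Cd79a: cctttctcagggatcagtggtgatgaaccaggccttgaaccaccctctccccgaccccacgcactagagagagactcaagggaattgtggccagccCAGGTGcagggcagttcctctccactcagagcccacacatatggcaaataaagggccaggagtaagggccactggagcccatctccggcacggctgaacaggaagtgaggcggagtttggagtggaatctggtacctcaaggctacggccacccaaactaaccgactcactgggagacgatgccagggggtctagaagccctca

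CACCTG was found, on either strand, in 5 of the 6 windows and in 20.2% of all 32851 promoter windows of the table. The window without it was that of Cd8a. Of the other letters searched on both strands, the Ets core GGAAGT was in 3 windows (Cd79a, Cd3d and Cd3e; 23.8% of all). The GATA letters AGATAA were in 1 (Cd3g; 11.2% of all) and the TCF letters CTTTGA in 1 (Cd3d; 16% of all). The Runx letters TGTGGT (16.8% of all) and the octamer ATGCAAAT (1.74% of all) were in none. No CACCTG match overlapped a match to the other letters. These are matches of letters and not measured sites.

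Cd22 encodes an inhibitory co-receptor that dampens B cell receptor signals. It was at 4.43, 4.41, 4.40 and 4.30 in CXCR5-/- AB and at 4.52, 4.36, 4.49 and 4.81 in WT AB hearts. It was at 4.52, 4.44 and 4.26 in CXCR5-/- Sham and at 4.60, 4.44 and 4.29 in WT Sham hearts. Only WT AB replicate 4 stood out, as for Ms4a1 and Cd79a.

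Cd3g, Cd3d and Cd3e encode the gamma, delta and epsilon chains of CD3, without which the T cell receptor does not reach the surface. Cd3g had the widest range of the 9 genes. It was at 4.03, 4.61, 4.93 and 4.31 in CXCR5-/- AB and at 4.83, 4.54, 5.85 and 4.40 in WT AB hearts. It was at 4.22, 3.88 and 4.71 in CXCR5-/- Sham and at 4.19, 4.21 and 3.83 in WT Sham hearts. All 4 WT AB arrays were above all 3 WT Sham arrays, and WT AB replicate 3 was 1.02 above the next of its group. The CXCR5-/- AB and CXCR5-/- Sham arrays overlapped. Cd3e was at 5.23, 5.30, 5.46 and 5.26 in CXCR5-/- AB, at 5.38, 5.26, 5.70 and 5.06 in WT AB, at 5.44, 5.04 and 5.15 in CXCR5-/- Sham and at 5.29, 5.33 and 4.69 in WT Sham hearts. Cd3d stayed within 3.72 to 4.13 on all 14 arrays, below the background percentile, with 3.75 to 3.93 in CXCR5-/- AB, 3.72 to 4.13 in WT AB, 3.72 to 4.03 in CXCR5-/- Sham and 3.77 to 4.09 in WT Sham hearts.

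The 3 CD3 genes lie on chromosome 9, as does Cxcr5 itself, with 10 protein-coding genes between Cxcr5 and Cd3g, 11 to Cd3d and 12 to Cd3e in the RefSeq gene order. For these 3 genes, the loss of CXCR5 and the stem cell strain's DNA that can travel with a targeted locus cannot be told apart in a comparison of genotypes.

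Cd8a encodes the alpha chain of CD8, the co-receptor of cytotoxic T lymphocytes, and Cd4 the co-receptor of helper T lymphocytes. Cd8a was at 5.19, 5.30, 5.83 and 5.23 in CXCR5-/- AB and at 5.34, 5.23, 6.34 and 5.14 in WT AB hearts. It was at 5.23, 5.17 and 5.41 in CXCR5-/- Sham and at 5.29, 5.27 and 5.0 in WT Sham hearts. Replicate 3 was the highest Cd8a array in 3 of the 4 groups and the lowest in WT Sham, and the other arrays lay within 5.0 to 5.34. Cd4 was at 4.30, 4.52, 4.90 and 4.59 in CXCR5-/- AB, at 4.50, 4.52, 4.70 and 4.78 in WT AB, at 4.56, 4.57 and 4.69 in CXCR5-/- Sham and at 4.43, 4.44 and 4.62 in WT Sham hearts. Cd4 overlapped between groups throughout, and its highest array, CXCR5-/- AB replicate 3, was 0.31 above the next of its group.

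The Cd3g and Cd8a windows are shown because these were the 2 genes that moved most alike from mouse to mouse. Cd3g (chr9:44980382-44980681, minus strand) holds the CACCTG letters at 2 places and Cd8a (chr6:71373177-71373476, plus strand) at none. The Cd3g window ends 854 bases before that of Cd3d, which is read from the opposite strand. Capitals mark the same letters as above.
Cd3g: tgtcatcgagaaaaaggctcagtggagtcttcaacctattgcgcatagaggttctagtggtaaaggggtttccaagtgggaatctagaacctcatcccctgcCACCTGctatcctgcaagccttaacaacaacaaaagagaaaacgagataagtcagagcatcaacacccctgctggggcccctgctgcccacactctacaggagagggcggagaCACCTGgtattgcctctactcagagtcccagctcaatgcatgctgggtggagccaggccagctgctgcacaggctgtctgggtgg
Cd8a: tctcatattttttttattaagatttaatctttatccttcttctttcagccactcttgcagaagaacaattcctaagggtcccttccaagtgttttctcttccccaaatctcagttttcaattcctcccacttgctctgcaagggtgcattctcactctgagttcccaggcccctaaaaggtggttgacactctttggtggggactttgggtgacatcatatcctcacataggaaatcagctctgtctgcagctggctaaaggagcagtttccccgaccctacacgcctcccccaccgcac

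In CXCR5-/- mice, AB against Sham called 0 of the 9 lymphocyte genes with limma (14.1% of all genes were called, 8.28% higher), with 1 at an unadjusted p under 0.05 (25.3% of all genes), and significance analysis of microarrays called 0 as well. Cd79b came closest, 0.29 ± 0.13 higher on the log2 scale (SE; limma adjusted p = 0.165). Cd79a was 0.28 ± 0.18 higher (limma adjusted p = 0.376). These were the 2 of 9 genes whose AB arrays lay wholly above the Sham arrays, as was the case for 13.7% of all genes. The 5 T lineage genes differed by -0.09 (Cd3d) to 0.20 (Cd3g), and their intervals included 0. The median difference was 0.12 over the 9 lymphocyte genes and -0.01 over all genes, and 6 of the 9 were higher. That median was 0.02 without CXCR5-/- Sham replicate 2 and 0.05 without CXCR5-/- AB replicate 3. Without CXCR5-/- Sham replicate 2 the Cd79b difference was 0.18 (limma adjusted p = 0.508).

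In WT mice, AB against Sham again called 0 of 9 with limma (9.32% of all genes were called, 5.1% higher), with 3 at an unadjusted p under 0.05 (21.1% of all genes), and 0 with significance analysis of microarrays. Cd3g was the only one of the 9 whose AB and Sham arrays did not overlap, as was the case in this direction for 9.39% of all genes, and its difference of 0.83 had a 95% confidence interval of 0.24 to 1.42. Cd79a differed by 0.47 (interval 0.09 to 0.85) and Cd79b by 0.29 (interval 0.02 to 0.56). The intervals of the other 6 genes included 0. Of the 9 genes 8 were higher in AB, Cd3d being the exception at -0.02, with a median difference of 0.25 against 0.01 over all genes.

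These WT differences moved with single mice. Without WT AB replicate 3, the Cd3g difference was 0.51 (limma adjusted p = 0.288), and without WT AB replicate 4 it was 1.0 (limma adjusted p = 0.0315). The Cd79a difference was 0.28 without WT AB replicate 4 (limma adjusted p = 0.371) and 0.61 without WT AB replicate 1 (limma adjusted p = 0.0388). With both WT AB replicates 3 and 4 left out, an alternative chosen after seeing the data, Cd3g differed by 0.61 (limma adjusted p = 0.119), Cd79a by 0.13 (limma adjusted p = 0.641) and Ms4a1 by -0.01. The count of genes higher was then 6 of 9 and the median 0.10.

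**Figure D2:**
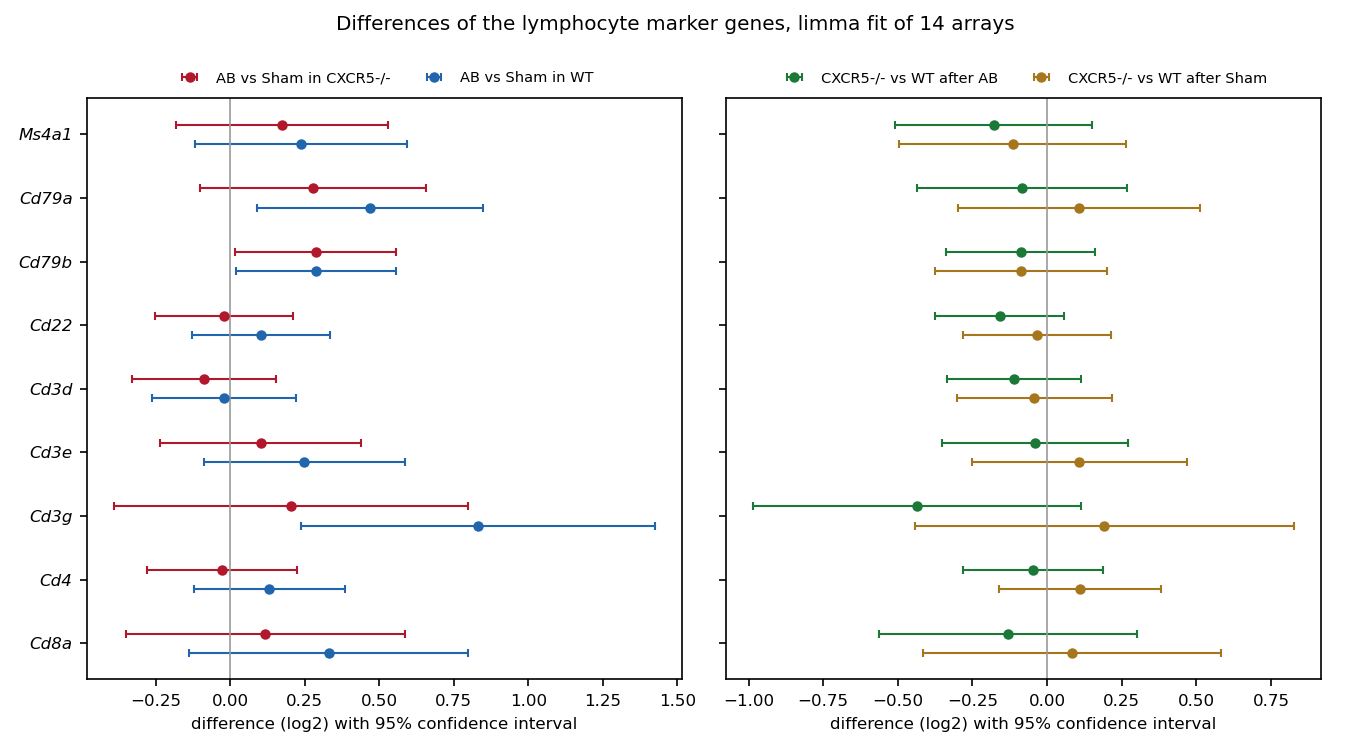
Difference in log2 level (horizontal axis) of each lymphocyte marker gene (rows) with its 95% confidence interval from the limma fit, for AB against Sham in CXCR5-/- and in WT mice (left) and for CXCR5-/- against WT mice after AB and after Sham (right). Intervals that leave out 0 are those of Cd79b in both AB comparisons and of Cd79a and Cd3g in WT mice, and no interval on the right leaves out 0.

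Between genotypes after AB, all 9 lymphocyte genes averaged lower in hearts labelled CXCR5-/- than in WT hearts, by 0.04 (Cd3e) to 0.43 (Cd3g), and limma called 0, with 0 at an unadjusted p under 0.05 (0.0451% of all genes, 9 genes, were called, and 21 with replicate number as a block). The Cd3g difference of -0.43 had a confidence interval of -0.98 to 0.12 (limma adjusted p = 0.915), and was -0.12 without WT AB replicate 3. Ms4a1, at -0.18, and Cd22, at -0.16, came next in size, and were at 0.01 and -0.07 without WT AB replicate 4. Leaving out single mice ended the shared direction. Without WT AB replicate 3, 2 of the 9 genes averaged higher in CXCR5-/- AB (median -0.05), without WT AB replicate 4, 3 did (median -0.07), and without CXCR5-/- AB replicate 1, 1 did (median -0.09). Without both WT AB replicates 3 and 4, 5 of the 9 genes (Ms4a1, Cd79a, Cd79b, Cd4 and Cd8a) averaged higher in CXCR5-/- AB and 4 lower, with a median of 0.06 in place of -0.11.

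After Sham, hearts labelled CXCR5-/- and WT hearts differed by -0.12 (Ms4a1) to 0.19 (Cd3g), with 5 genes higher and 4 lower and 0 called by limma, 0 of them at an unadjusted p under 0.05 (0.0401% of all genes were called). Significance analysis of microarrays called 0 of the 9 after Sham and after AB. The difference of the AB responses between the genotypes was below 0 for all 9 genes, from -0.63 (Cd3g) to -0.002 (Cd79b), and 0 were called by limma, as for all genes (0% called, smallest adjusted p 0.804, with 574 genes and none of the 9 at an unadjusted p under 0.05). For Cd3g the interval ran from -1.47 to 0.21, and the value was -0.31 without WT AB replicate 3. Without WT Sham replicate 3 the difference of the AB responses was above 0 for 3 of the 9 genes (median -0.05). Without WT AB replicate 3 or 4 it was above 0 for 2 each (medians -0.09 and -0.07). It was above 0 for 1 gene without CXCR5-/- AB replicate 2 or 3 or CXCR5-/- Sham replicate 1 or 3. Array weights put 2 genes above 0, and quantile normalization and centring on array medians 1 each. Without both WT AB replicates 3 and 4 this difference was above 0 for 5 of the 9 genes, with a median of 0.02 in place of -0.15. The 2 genotype comparisons and the difference of responses use some of the same arrays as the AB comparisons.

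**Figure D3:**
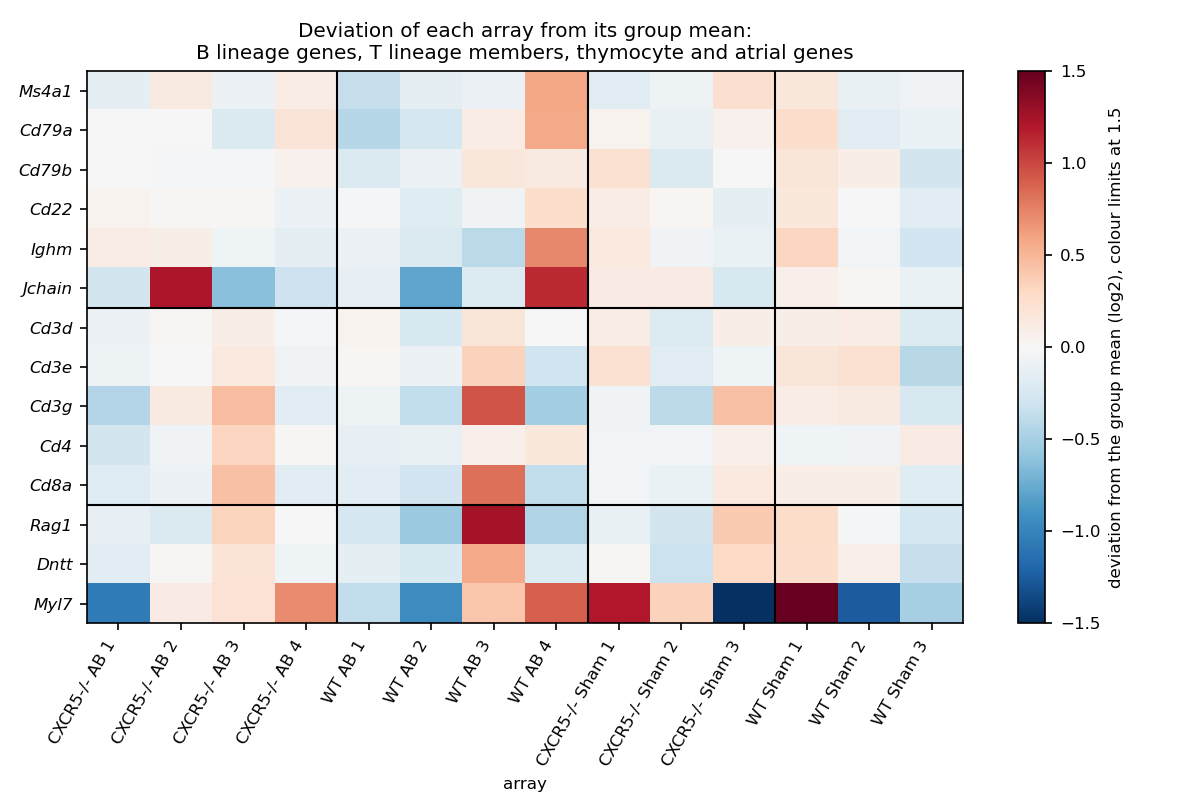
Deviation of each array (columns) from its group mean, on the log2 scale (colour), for B lineage genes (top, with the immunoglobulin genes Ighm and Jchain), T lineage genes (middle), and the thymocyte genes Rag1 and Dntt with the atrial gene Myl7 (bottom). WT AB replicate 3 is high in Cd3g, Cd8a, Rag1 and Dntt, and WT AB replicate 4 in Ms4a1, Cd79a, Ighm and Jchain.

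WT AB replicate 3 was the highest of its group for 4 of 5 T lineage members (Cd4 was the exception), for 11 of 23 other T cell genes and for 1 of 4 B lineage members. Over all genes that array was highest of its group for 22.8%. CXCR5-/- AB replicate 3 was the highest of its group for all 5 T lineage members and 12 of 23 other T cell genes, against 26.6% of all genes. WT AB replicate 4 was the highest of its group for 3 of 4 B lineage members, 3 of 4 immunoglobulin genes and 5 of 17 other B cell genes, against 25.7% of all genes. WT AB replicate 3 had the second-highest mean of the B lineage members among the 14 arrays, 4.58 against 4.93 on WT AB replicate 4. Among CXCR5-/- Sham hearts, replicate 1 was highest for 2 of 4 B and 2 of 5 T lineage members, against 44.5% of all genes. CXCR5-/- Sham replicate 3 was highest for 2 of 4 and 3 of 5, against 24.1% of all genes.

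Genes of immature T lymphocytes of the thymus were read on the same arrays. Rag1, which with Rag2 rearranges antigen receptor genes, was at 6.04 on WT AB replicate 3 and at 4.23 to 4.54 on the other WT AB arrays. Dntt, which adds bases at the joints of those rearrangements, was at 4.10 there and at 3.31 to 3.40 on the others. Dntt lay below the background percentile on every array, WT AB replicate 3 included. Rag1 was also highest of its group on CXCR5-/- AB replicate 3 (4.73) and CXCR5-/- Sham replicate 3 (4.87), the arrays with the highest Cd3g of their groups. In WT Sham hearts this was not so, as Cd3g was highest on replicate 2 (4.21) and Rag1 (4.43) and Dntt (3.70) on replicate 1. Of the 4 thymocyte genes 3 were highest on WT AB replicate 3, with Rag2 at 2.90 near the middle of the background. Ptcra, the pre-T cell receptor chain, was at 5.22 there against 5.10 to 5.41 on the others. The mean level of the 4 genes was 3.84 to 4.03 in CXCR5-/- AB, 3.77 to 4.57 in WT AB, 3.67 to 4.11 in CXCR5-/- Sham and 3.60 to 3.90 in WT Sham hearts. The part of these transcripts in the T lineage result was not tested.

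On WT AB replicate 4, Ighm, the heavy chain of immunoglobulin M, was at 6.14 and at 5.02 to 5.33 on the other WT AB arrays, and Jchain, which joins immunoglobulin M units, was at 4.87 against 2.96 to 3.63. The 3 atrial genes were also highest of their group on that array, with Myl7 at 7.48. Their part in the B lineage result was not tested. Myl7 was far higher on CXCR5-/- Sham replicates 1 and 2 (9.68 and 8.82) and WT Sham replicate 1 (9.09) than on the other 11 arrays (5.65 to 7.49), though the atria had been removed. CXCR5-/- Sham replicate 1 and WT Sham replicate 1 were the highest of their groups of 3 for 44.5% and 42.5% of all genes. WT Sham replicate 1 was the highest of its group for all 4 B lineage members, at levels between 3.80 (Ms4a1) and 5.33 (Cd79b).

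Deviations from the group means were correlated over the 14 arrays for all 36 pairs of the 9 genes, each with an exact two-sided permutation test of arrays within groups. T lineage genes went together. Cd3g and Cd8a had a Pearson r of 0.93 (p = 9.645e-05, where the smallest possible is 4.82e-05, adjusted p = 0.00347 over 36 pairs) and a Spearman rho of 0.91 (p = 9.645e-05, adjusted p = 0.00347), and r was 0.86 without CXCR5-/- AB replicate 3 and WT AB replicate 3. By Spearman's rho the 6 pairs that can be made from Cd3d, Cd3e, Cd3g and Cd8a all passed after adjustment (exact permutation test, adjusted p 0.00347 to 0.0243), and by Pearson's r Cd3g and Cd8a alone did. The pairs of Cd4 with the other T lineage genes had r of -0.08 to 0.40.

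Among B lineage genes, Ms4a1 and Cd79a had the highest r, 0.85 (exact permutation p = 0.00338, adjusted p = 0.0550), with a Spearman rho of 0.67 (exact permutation p = 0.0233, adjusted p = 0.120) and an r of 0.76 without WT AB replicate 4 and CXCR5-/- Sham replicate 3. The median r was 0.68 over the 10 pairs within the T lineage, 0.56 over the 6 pairs within the B lineage and 0.07 over the 20 pairs across lineages. With the 2 arrays farthest from the median left out of each pair, these medians were 0.64, 0.37 and 0.18. The difference between these medians was not tested. None of the across-lineage pairs passed after adjustment, and none of the B lineage pairs did. Across lineages r ran from -0.34 (Ms4a1 and Cd3e) to 0.68 (Cd79b and Cd3d), and Cd79b and Cd3e had an r of 0.63. All arrays share the same normalization, whose part in these correlations was not tested.

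**Figure D4:**
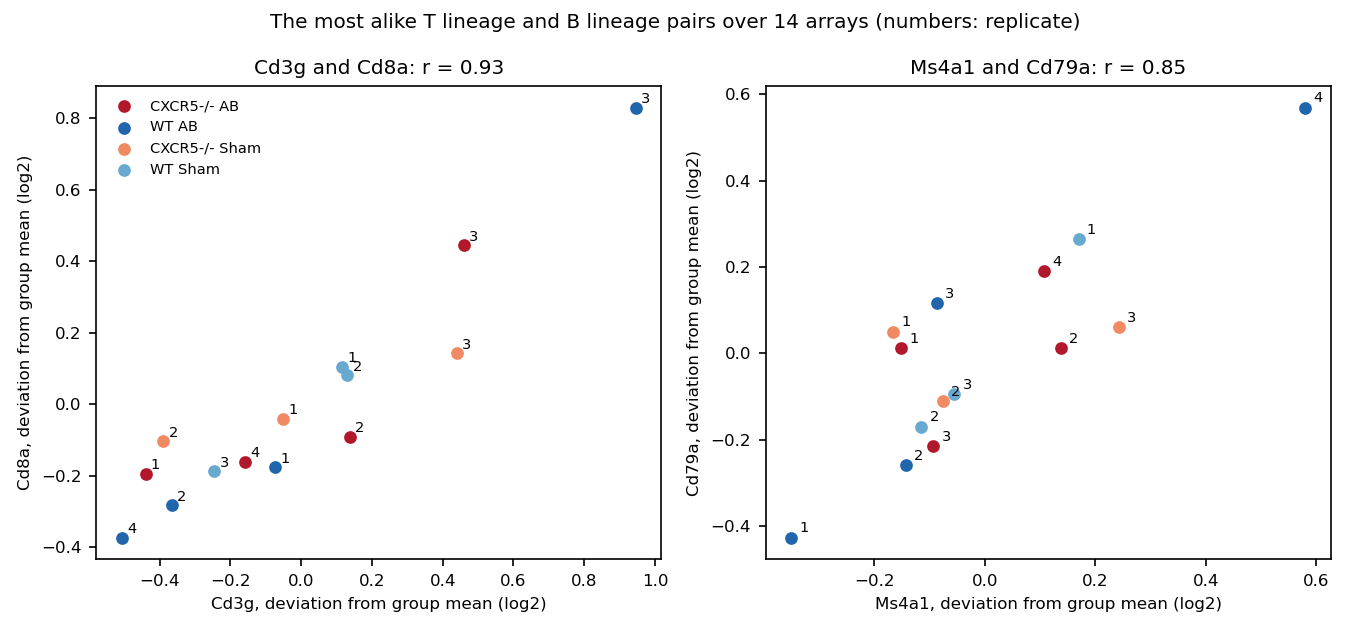
Deviations from the group mean (log2) of Cd8a against Cd3g (left, r = 0.93) and of Cd79a against Ms4a1 (right, r = 0.85), 1 point per array, with replicate numbers and groups by colour. WT AB replicate 3 lies at the upper end on the left and WT AB replicate 4 at the upper end on the right.

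Over all genes, those most like the mean of the 3 CD3 genes, as a description over the 14 arrays, in deviations from group means and with no test, were Dntt (r = 0.95), Camk4 (0.92), a calcium-dependent kinase, Zdbf2 (0.87), Cd247 (0.87), the zeta chain of the T cell receptor complex, and Rag1 (0.87). Dntt and Rag1 were already among the thymocyte genes. Dntt, Camk4 and Zdbf2 lay below the background percentile on every array. Those most like the mean of Cd79a and Cd79b were Dusp10 (0.94), a phosphatase of stress-activated kinases, Pura (0.89), Btg1 (0.89), Tnfaip3 (0.88), an inhibitor of NF-kappaB signals, and Lif (0.87), a cytokine. None of these 5 was in a B cell list.

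Of 17 other B cell genes, 2 rose and 0 fell with AB in CXCR5-/- mice and 1 rose and 0 fell in WT mice, where 14.1% and 9.32% of all genes were called, with medians of 0.10 and 0.17. Cd72, a B cell co-receptor, rose by 1.37 ± 0.17 in CXCR5-/- and 1.01 ± 0.17 in WT mice on the log2 scale (SE; limma adjusted p = 4.59e-05 and 0.0012), without overlap between AB and Sham arrays (6.05 to 6.70 on the 8 AB arrays, 4.77 to 5.55 on the 6 Sham arrays). Of the AB arrays, WT AB replicate 4, the highest of all in Ms4a1 and Cd79a, had the lowest Cd72 (6.05). Cd72 was highest of its group on CXCR5-/- AB replicate 2 (6.70) and WT AB replicate 3 (6.49). Those arrays also had the highest mean of the macrophage genes in their groups (7.69 and 7.47), though WT AB replicate 1 was close behind at 7.46. In the Sham groups Cd72 and the macrophage mean were highest on different arrays. The cell source of Cd72 was not tested. Btk, a kinase below the B cell receptor that myeloid cells also use, rose by 0.44 in CXCR5-/- mice (limma adjusted p = 0.029). It lay below the background percentile on every CXCR5-/- Sham array and on CXCR5-/- AB replicates 2 and 3. None of the 4 immunoglobulin genes measured, of 12 listed, passed. Jchain was 0.78 higher with AB in WT mice (limma adjusted p = 0.249) and Ighg3 was -0.38 in CXCR5-/- mice (limma adjusted p = 0.116). Ighg3 lay below the background percentile on every array, and Jchain on every array but WT AB replicate 4. Of 6 genes of B cell receptor signalling, 2 rose in each genotype, Plcg2 in both (0.78 in CXCR5-/- and 0.48 in WT mice), Btk in CXCR5-/- and the phosphatase Ptpn6 (0.42) in WT mice. Btk is in both lists, so its call is counted in each.

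Of 23 other T cell genes, 1 rose and 2 fell with AB in CXCR5-/- mice and 1 rose and 1 fell in WT mice, with medians of -0.04 and 0.08. Over all genes, 14.1% in CXCR5-/- and 9.32% in WT mice were called with AB. These shares also stand beside the lists that follow. Thy1, found on T lymphocytes and also on fibroblasts, rose by 0.57 in CXCR5-/- and 0.76 in WT mice (limma adjusted p = 0.00636 and 0.00127). Ctla4, an inhibitory receptor of activated T lymphocytes, fell by 0.67 in CXCR5-/- and 0.64 in WT mice on the log2 scale (limma adjusted p = 0.00178 and 0.00367), and Cd28, the costimulatory receptor, fell by 0.53 in CXCR5-/- mice (limma adjusted p = 0.0151). The Ctla4 levels were 3.90 to 4.51 on the AB arrays, below the background percentile on all 8, and 4.69 to 5.21 on the Sham arrays. Of 8 genes close to the T cell receptor, 2 rose in each genotype, Ptprc and Lcp2 (0.59 in CXCR5-/- and 0.45 in WT mice), both shared with other leukocytes. Of 12 natural killer and cytotoxic genes Klrd1 alone passed, at 0.41 in CXCR5-/- and 0.53 in WT mice, with levels below the background percentile on all 14 arrays. None of 7 dendritic cell genes or of 4 thymocyte genes passed, with Itgax at 0.29, Clec9a at 0.21 in CXCR5-/- mice and Rag1 at 0.64 in WT mice.

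Of 8 genes that all leukocytes use, 6 rose with AB in each genotype and none fell, with medians of 0.71 in CXCR5-/- and 0.54 in WT mice. Ptprc, which encodes CD45, was at 6.69, 6.90, 6.60 and 6.47 in CXCR5-/- AB and 5.73, 5.94 and 5.90 in CXCR5-/- Sham hearts, a rise of 0.80 (limma adjusted p = 8.6e-05). In WT hearts it was at 6.53, 6.53, 6.64 and 6.80 after AB and 6.20, 5.96 and 6.13 after Sham, a rise of 0.53 (limma adjusted p = 0.00468). Laptm5 rose by 1.16 and Cd52 by 1.24 in CXCR5-/- mice, and by 0.84 and 1.08 in WT mice. Cd53 rose by 0.89 in CXCR5-/- mice and Itgb2, an integrin chain, by 0.55 in WT mice. Of 13 macrophage genes, 9 rose in CXCR5-/- and 6 in WT mice and none fell, with medians of 0.65 and 0.40. Cd68 was at 1.09 and 0.86, C1qb and C1qc, chains of complement C1q, at 1.01 and 0.69 and at 0.82 and 0.56, and Lyz2, a lysozyme, at 0.86 and 0.55. Beside these, the medians of the B lineage members were 0.23 in CXCR5-/- and 0.26 in WT mice and those of the T lineage members 0.10 and 0.25. Of 7 genes of the lymphoid chemokine axis, 1 rose in CXCR5-/- and 2 in WT mice and none fell. Cxcl13, the ligand of CXCR5, rose by 2.89 in CXCR5-/- and 2.55 in WT mice (limma adjusted p = 0.0179 and 0.0485), and ranged from 4.92 to 9.45 on the CXCR5-/- AB arrays and from 4.32 to 7.42 on the WT AB arrays. It lay below the background percentile on all 6 Sham arrays and on WT AB replicate 2, so the size of its change rests on values near background. Ccl19, a chemokine of lymphoid tissue that draws T lymphocytes, rose by 0.84 in WT mice (limma adjusted p = 0.00139) and was -0.31 in CXCR5-/- mice (limma adjusted p = 0.207). The difference of its responses was -1.15, with a limma adjusted p of 0.804. The Sham levels of Ccl19 did not overlap, at 7.15 to 7.47 in WT Sham and 7.78 to 8.49 in CXCR5-/- Sham hearts. Ccl19 was thus 0.875 higher in CXCR5-/- after Sham (limma adjusted p = 0.0802). After AB the genotypes overlapped, at 7.94 to 8.25 in WT AB and 7.58 to 8.09 in CXCR5-/- AB hearts. None of 3 atrial, 3 fat and 2 red blood cell genes passed, where Myl7 was at -1.69 in CXCR5-/- mice, Adipoq at 1.0 and Cidec at 0.83 in WT mice, Alas2 at 0.29 in CXCR5-/- and Slc4a1 at 0.23 in WT mice. After Sham, the atrial gene Myl4 averaged 0.92 and Rag2 0.26 higher in CXCR5-/- than in WT hearts, and neither passed. Of the cardiomyocyte genes, 2 of 5 fell in CXCR5-/- mice (Tnni3 by 0.38 and Myh6 by 0.29 on the log2 scale). No listed gene other than Cxcr5 passed between genotypes, after AB or Sham, or in the difference of responses. The Cxcr5 probe set lay below the background percentile on every array.

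**Figure D5:**
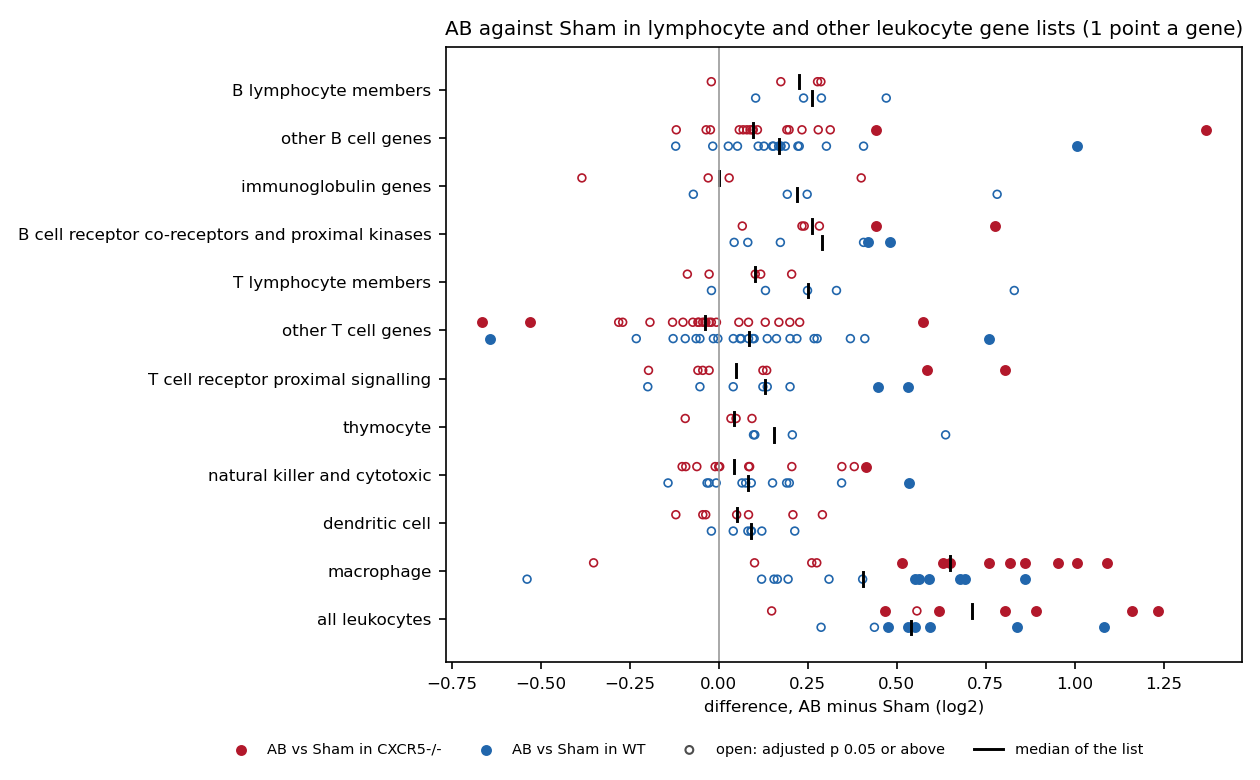
Difference of AB minus Sham in log2 level (horizontal axis) for each gene (points) of lymphocyte and other leukocyte lists (rows), in CXCR5-/- (upper points of a row) and WT mice (lower points), filled where the limma adjusted p was under 0.05, with the median of each list as a bar. The medians of the lymphocyte members lie between 0.10 and 0.26, and those of the all-leukocyte and macrophage lists between 0.40 and 0.71.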

How the data were processed

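Left ventricles were profiled on 14 arrays, 1 per mouse. The authors processed the arrays by RMA and deposited log2 values for 34760 probe sets, whose version and settings are not given in the sources used here. For ventricles the labels name a different RNA kit than the paper's methods. Values were used as deposited, array medians lay at 5.19 to 5.30, and the number of arrays limits the precision. The arrays carry no detection call in the table used, so background was read from olfactory receptor probe sets. Of the probe sets, 21640 had 1 symbol, 1321 several and 11799 were unlisted. A gene was read from its probe set of highest mean over the arrays, which for each of the 9 genes was the only one. Symbols, gene order and promoter windows came from RefSeq (GRCm38.p6).

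The groups were compared with limma 3.58.1 under R 4.3.3 (eBayes after lmFit), 1 fit of 4 group means, two-sided, with Benjamini-Hochberg adjustment over 19937 genes and a threshold of 0.05. The methods name significance analysis of microarrays without settings, so it was an alternative at a q of 0.05. The lymphocyte genes and all lists were chosen with earlier results of these data known. Genes of other lists were named when they passed, up to 4 per list and comparison by smallest p, or the 2 of smallest p where none did. The steps were tested on simulated data in which 200 genes changed. A log2 change of 0.5 was recovered for 44.5% of them for AB in CXCR5-/- and 48% for AB in WT mice. It was recovered for 59.5% between genotypes after AB, 34% after Sham and 0% for the difference of responses. A change of 1 was recovered for 82.5% to 98%. A count of 0 called therefore does not show that small changes were absent. Pairs of genes were tested by exact permutation within groups (20736 arrangements, SciPy 1.17.1). Replicate numbers are shared between groups: for CXCR5-/- against WT after AB, arrays of the same number deviated together in all 4 pairs (r 0.13 to 0.22), by the values and not by any label, so a blocked fit was set beside that comparison. Further alternatives took each array out in turn, used array weights, other variance models, other scaling, no dim probe sets, other probe set rules and the compared groups alone.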

Additional observations from a re-analysis of the deposited data

Results flagged for a closer look

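A value was picked out when, in a group of 4 arrays, the highest or lowest lay far from the other 3 by Dixon's criterion, which chance meets in about 1 of 20 groups. It was met by 2 of the 18 groups formed by the 9 lymphocyte genes and the AB arrays, and by 6 of 110 groups with the other genes named. Cd8a was at 5.83 on CXCR5-/- AB replicate 3, with the other 3 arrays at 5.19 to 5.30, and at 6.34 on WT AB replicate 3, with the others at 5.14 to 5.34. On WT AB replicate 3 the thymocyte genes Rag1 (6.04, others 4.23 to 4.54) and Dntt (4.10, others 3.31 to 3.40) met it as well. Dntt was below the background percentile there, as on every array. Slc4a1, a membrane protein of red blood cells, was at 6.11 on CXCR5-/- AB replicate 2 (others 5.46 to 5.51) and at 5.81 on WT AB replicate 1 (others 5.45 to 5.51), which are not the arrays that stood out in lymphocyte genes. Groups of 3 Sham arrays cannot be judged this way. What set these values apart was not tested.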

How the results depend on the processing

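Over 26 alternative settings, the log2 differences of the 9 genes in the 5 comparisons gave 1137 values, of which 1131 stayed on the same side of the threshold and 6 became calls. None reversed while called, and 55 values, in 26 of the 45 gene and comparison pairs, changed sign with neither value called. With array weights 1 gene was called for AB in CXCR5-/- mice (Cd79b, 0.32, limma adjusted p = 0.0279) and 2 in WT mice (Cd79a, 0.55, limma adjusted p = 0.018, and Cd3g, 0.82, limma adjusted p = 0.0479), while calls over all genes went to 4770 and 3408 in place of 2818 and 1858. These weights leaned on 1 mouse in each Sham group. They were 3.91 for CXCR5-/- Sham replicate 3 and 3.39 for WT Sham replicate 2, and 0.50 to 1.25 for the other arrays. With replicate number as a block, where arrays of the same number did not all deviate together, Cd3g was the 1 gene called for AB in WT mice (0.94, limma adjusted p = 0.0126), and the block changed no other call of the 9 genes. Leaving out each array in turn gave 0 to 1 called genes for AB in WT mice and 0 in the other comparisons. Over all genes, calls for AB in WT mice were 1025 and 1002 without WT Sham replicate 2 or 3. Calls between genotypes after AB (9 genes) were 4 with the compared groups alone, 21 with the block, 5 without WT AB replicates 3 and 4 together, and 4 to 34 with 1 array left out, the highest without CXCR5-/- AB replicate 4. After Sham (8 genes) they were 39 with array weights, 5 with all probe sets, and 3 to 8 with 1 array left out. Pairs of genes past adjustment by Pearson's r numbered 1, and 5 without centring on group means, 2 with arrays centred on their medians, 1 to 5 with 1 array left out and 4 without WT AB replicates 3 and 4 together, a setting chosen after seeing the data. Of the 9 genes 3 were above the olfactory receptor background on all 14 arrays, 6 above that of vomeronasal receptors and 3 above both sets together. Without probe sets under the 30th percentile, 6 of the 9 genes were left to test (not Ms4a1, Cd79a and Cd3d) and 0 were called, and significance analysis of microarrays was not run for the difference of responses. The cause of these changes was not tested. Ms4a1 and Cd3d were below the olfactory receptor percentile on every array, so their differences are between values not above background.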
